A study of Mus musculus with 14 samples.

Results

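The erythroid set holds 8 genes whose RNA marks red blood cells and their precursors: the adult alpha-globins Hba-a1 and Hba-a2, the adult beta-globins Hbb-bs and Hbb-bt, the embryonic globins Hba-x and Hbb-y, Alas2 and Slc4a1. They were chosen by symbol in the table of normalized values, and all 8 were among its 15894 genes. The table covers the dissected epicardium and subepicardium of mouse hearts at E16.5, in 14 poly(A) RNA libraries that each come from a pool of 2 hearts. There were 3 dorsal and 3 ventral libraries of female hearts, numbered 1 to 3 on each side, 3 dorsal and 4 ventral libraries of male hearts, numbered 4 to 6 and 4 to 7, and 1 further male library, number 7, that is dorsal by its title and source name and ventral by its tissue entry. All were of the genotype Tbx18Cre, an allele that drives Cre in the epicardium, and none was treated. The study calls the hearts wild type and kept its mice on a mixed background. Its methods have hearts stopped in a potassium chloride solution with heparin before dissection and fixation. For RNA they say only that the layer was dissected by an earlier protocol and frozen. The levels below are read as the RNA of blood cells left with the tissue. The study compared dorsal with ventral regions and males with females. The male library of unsettled region entered no main regional comparison, and was taken as dorsal or as ventral only in alternative fits.

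Red cells carry oxygen on haemoglobin, a tetramer of alpha-like and beta-like globin chains that each hold a haem group. The first wave of red cells, from the yolk sac, uses embryonic chains, and the red cells made later in the fetal liver use the adult ones, so the proportion of embryonic to adult globin RNA falls in the course of gestation. Alas2 is the erythroid 5-aminolevulinate synthase, the enzyme that starts haem synthesis in these cells. Slc4a1 is band 3, the anion exchanger of the red cell membrane, to which the membrane skeleton is anchored. Immature red cells, the reticulocytes, have lost the nucleus but still hold globin RNA.

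The values are normalized CPM, that is, reads scaled to the effective library size as in CPM, and are not divided by gene length. Reads on the listed genes came to 13.9 to 25.2 M per library, and 3 reads, taken as the floor of detection, equalled 0.116 to 0.217 normalized CPM. No member was at that floor in any library, the lowest count being 9 reads of Slc4a1. Wt1, Tbx18, Upk1b and Krt19, which mark the epicardium, were above the floor in every library, and so were Tnnt2 and Myh7 of the heart muscle. The ventral male library 7 stood apart, with the lowest sums of 8 blood endothelial and 10 ventricular cardiomyocyte genes. In bulk tissue, fewer cells of a type and less RNA per cell cannot be told apart.

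How far the members' reads can be separated depends on their sequence, so the coding sequences that differ least are shown first. All positions are on GRCm38 with GENCODE M21. Hba-x (chr11:32276400-32278116), Hba-a1 (chr11:32283511-32284465) and Hba-a2 (chr11:32296489-32297298) follow each other on the plus strand of chromosome 11. Hbb-bt (chr7:103812524-103813996), Hbb-bs (chr7:103826534-103828096) and Hbb-y (chr7:103851749-103853216) lie on the minus strand of chromosome 7, each globin gene with 3 exons. Alas2 (chrX:150547375-150570638, plus strand) has 11 exons and Slc4a1 (chr11:102348824-102366203, minus strand) has 20. The coding sequences of Hba-a1 and Hba-a2, 426 bases each, differ at 1 base, C381T, counted from the first coding base with the base of Hba-a1 first. The difference is in capitals in coding bases 351 to 410 of both genes, 5′ to 3′.
Hba-a1: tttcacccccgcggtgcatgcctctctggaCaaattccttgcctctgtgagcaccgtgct
Hba-a2: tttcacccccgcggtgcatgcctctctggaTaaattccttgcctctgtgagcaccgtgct

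Hbb-bs and Hbb-bt, 441 coding bases each, also differ at 1 base, C417T, with the base of Hbb-bs first. Coding bases 382 to 441 are shown with that base in capitals.
Hbb-bs: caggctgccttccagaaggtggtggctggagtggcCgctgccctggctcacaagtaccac
Hbb-bt: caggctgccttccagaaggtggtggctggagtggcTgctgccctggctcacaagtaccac

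Since the reads were 60 bases long, each transcript was cut into windows of that length. Of the windows of Hba-a1, 65.5% occur unchanged in Hba-a2, and 84.6% of those of Hba-a2 occur in Hba-a1. The shares were 65.2% of Hbb-bs in Hbb-bt and 57.6% of Hbb-bt in Hbb-bs. The split of reads within each of these pairs therefore rests on the windows that hold a differing coding base or the untranslated ends, and on RSEM's estimate, and the values of the single adult genes are uncertain to that extent, while the sum over a pair does not depend on the split. Mouse strains carry more than 1 form of the beta-globin locus, and which form these hearts carried was not read here. The embryonic genes shared no window with any other member. Over 441 coding bases Hbb-y matched Hbb-bs at 74.4%, and over 426 Hba-x matched Hba-a1 at 61.7%. Bases 118 to 237 of Hbb-bs and Hbb-y show the spacing of the differences, in capitals, of which there are 38 in these 120 bases.
Hbb-bs: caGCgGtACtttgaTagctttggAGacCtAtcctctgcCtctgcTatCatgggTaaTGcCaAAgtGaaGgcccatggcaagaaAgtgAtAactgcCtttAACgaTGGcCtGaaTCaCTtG
Hbb-y: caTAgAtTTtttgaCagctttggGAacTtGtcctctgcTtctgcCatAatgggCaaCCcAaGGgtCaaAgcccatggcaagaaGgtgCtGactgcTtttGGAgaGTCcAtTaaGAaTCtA

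The 250 bases before the RefSeq start (GRCm38.p6) of 4 members are printed, read 5′ to 3′ on the strand of the gene. Letters searched for were AGATAA and TGATAA (the GATA motif, both strands), CACCC (both strands), CCAAT (both strands), and TATAAA and CATAAA (the TATA motif, strand of the gene only), and matches are in capitals, merged where they overlap. GENCODE holds longer transcripts and places the outer end of these 4 genes inside the windows.
Hba-a1, chr11:32283422-32283671, plus strand: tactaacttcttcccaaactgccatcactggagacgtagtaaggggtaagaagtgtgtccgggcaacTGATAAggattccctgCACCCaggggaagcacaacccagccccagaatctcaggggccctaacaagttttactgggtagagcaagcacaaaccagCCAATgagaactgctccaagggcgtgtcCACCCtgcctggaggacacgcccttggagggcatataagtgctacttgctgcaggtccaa
Hbb-bs, chr7:103827929-103828178, minus strand: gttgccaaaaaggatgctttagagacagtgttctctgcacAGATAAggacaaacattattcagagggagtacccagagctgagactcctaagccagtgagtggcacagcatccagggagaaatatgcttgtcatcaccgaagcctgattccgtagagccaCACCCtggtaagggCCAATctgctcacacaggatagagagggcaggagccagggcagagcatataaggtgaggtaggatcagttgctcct
Hbb-bt, chr7:103813924-103814173, minus strand: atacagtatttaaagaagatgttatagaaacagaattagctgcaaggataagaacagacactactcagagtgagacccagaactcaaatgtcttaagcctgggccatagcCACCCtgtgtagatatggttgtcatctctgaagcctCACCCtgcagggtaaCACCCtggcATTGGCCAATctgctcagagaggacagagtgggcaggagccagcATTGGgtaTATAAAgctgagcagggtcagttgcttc
Alas2, chrX:150547167-150547416, plus strand: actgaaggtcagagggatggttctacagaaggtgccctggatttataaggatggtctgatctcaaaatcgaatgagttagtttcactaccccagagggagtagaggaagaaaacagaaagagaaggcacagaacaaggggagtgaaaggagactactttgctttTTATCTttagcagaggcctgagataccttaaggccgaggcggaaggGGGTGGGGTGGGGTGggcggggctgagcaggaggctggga
Of 32851 mouse promoter windows of this length, 16.6% held the GATA motif, 52% CACCC, 33.8% CCAAT and 12.8% the TATA motif. Promoter sequence was at hand for 7 members: Hba-a1, Hba-a2, Hbb-bs, Hbb-bt, Hba-x, Hbb-y and Alas2. The GATA letters were found once in each of these except Hbb-bt, whose window held CACCC 3 times and CCAAT 3 times. Alas2 held CACCC 3 times, on the other strand. The windows of Hba-a1 and Hba-a2 are identical over 247 bases, with an offset of 3 bases. The matches are descriptions of the letters, not of binding.

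The adult globins were among the most abundant RNAs of the tissue. By its mean over the 14 libraries, Hba-a1 ranked first of all 15894 genes, Hbb-bs ranked 6, Hba-a2 ranked 7 and Hbb-bt 82, while Alas2 ranked 2996, Hba-x 8036, Hbb-y 9014 and Slc4a1 11923. Divided by transcript length, the mean levels in normalized CPM per kilobase were 12275 for Hba-a1, 11743 for Hba-a2 and 11073 for Hbb-bs, which differ by less than the spread among libraries. Hbb-bt stood at 1779 per kilobase, Alas2 at 32.1, Hba-x at 19.7, Hbb-y at 18.7 and Slc4a1 at 0.818.

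The 8 genes together took 1.06 to 3.06% of the reads on listed genes in 13 libraries and 8.34% in ventral male library 7. Their summed level in normalized CPM was 15293, 29649 and 30211 in female dorsal libraries 1 to 3 and 20268, 27313 and 19308 in female ventral libraries 1 to 3. In male hearts it was 10686, 11670 and 15246 in dorsal libraries 4 to 6, 18585, 12467, 19608 and 82048 in ventral libraries 4 to 7, and 15074 in the library of unsettled region. The groups overlapped in both sexes between regions, and the ventral male library 7 was 4.41 times the median of the others. Means were 25051 ± 8455 (SD, n = 3) for female dorsal, 22296 ± 4371 (n = 3) for female ventral, 12534 ± 2400 (n = 3) for male dorsal and 33177 ± 32733 (n = 4) for male ventral libraries.

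**Figure D1:**
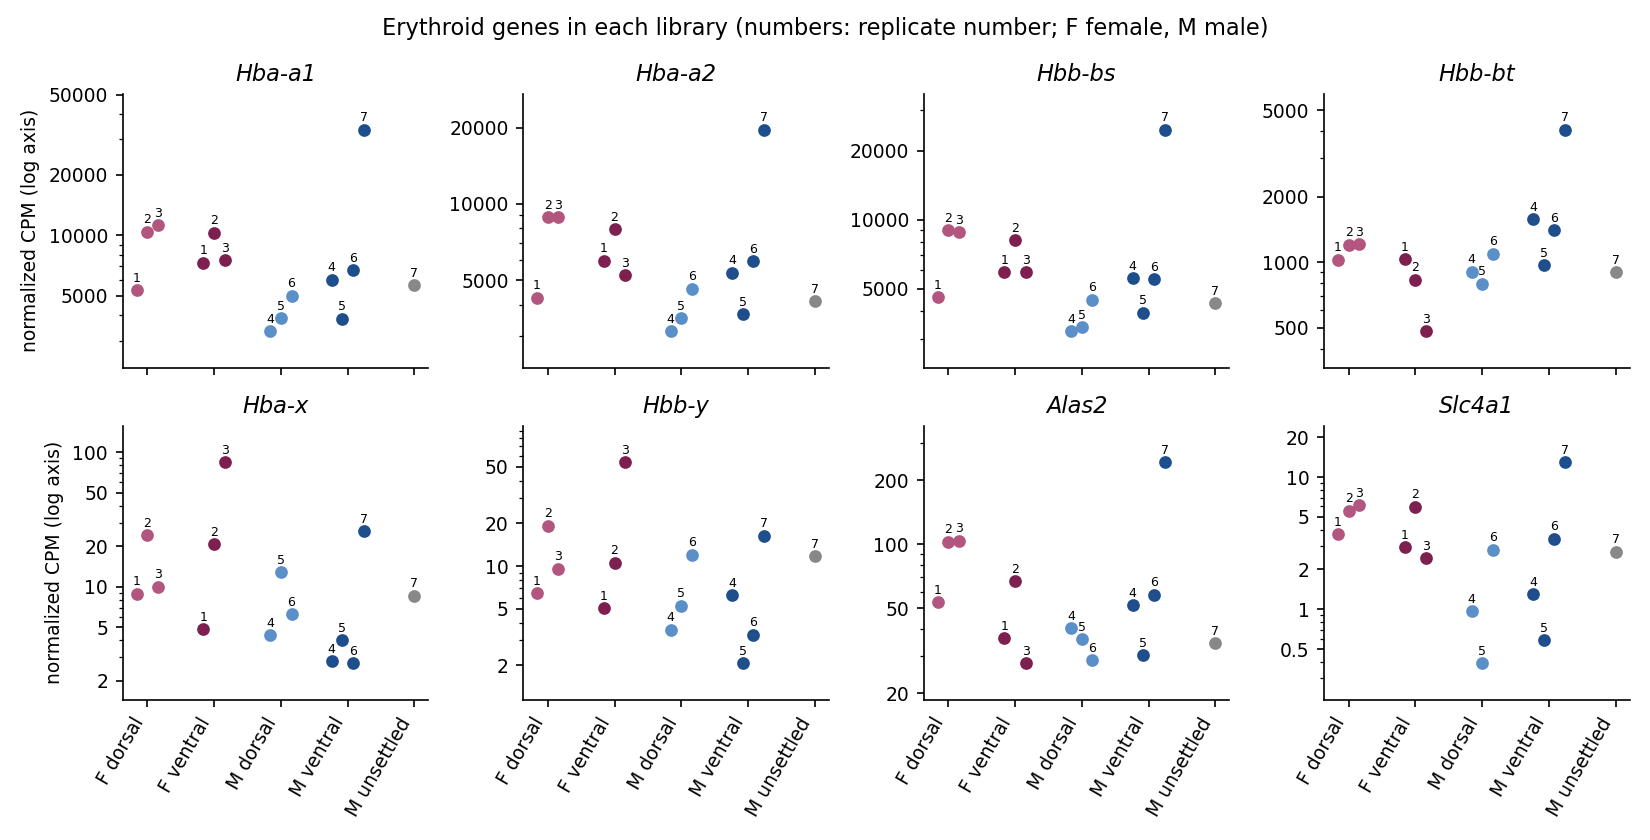
Level of each erythroid gene in each library, in normalized CPM on a log axis, by sex (F female, M male) and region; each point is 1 library of 2 pooled hearts and the small figure is its replicate number. Ventral male library 7 is the highest for the 4 adult globins, Alas2 and Slc4a1, and female ventral library 3 is the highest for both embryonic globins.

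Hba-a1, the most abundant of the adult alpha-globins, was at 5357, 10441 and 11226 normalized CPM in female dorsal libraries 1 to 3 and at 7323, 10317 and 7537 in female ventral ones. In male libraries it was at 3338, 3889 and 5007 in dorsal 4 to 6, at 6027, 3862, 6702 and 33422 in ventral 4 to 7, and at 5676 in the unsettled one. The male dorsal libraries were all below the female dorsal ones, whereas the regions overlapped within each sex. Hba-a2, the second alpha-globin gene, was at 4256, 8874 and 8845 in female dorsal, 5966, 7927 and 5236 in female ventral, 3139, 3531 and 4618 in male dorsal, 5352, 3675, 5942 and 19593 in male ventral libraries and 4128 in the unsettled one. It followed the order of Hba-a1 closely, with the regions again overlapping in each sex.

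Hbb-bs, the more abundant of the adult beta-globins, was at 4580, 8975 and 8797 in female dorsal, 5894, 8134 and 5885 in female ventral, 3256, 3398 and 4476 in male dorsal, 5563, 3925, 5489 and 24674 in male ventral libraries and 4311 in the unsettled one. As for Hba-a1, the male dorsal values were all below the female dorsal ones, by a narrow gap. Hbb-bt, the beta-globin of lower level, was at 1029, 1206 and 1212 in female dorsal, 1036, 831 and 481 in female ventral, 904, 798 and 1096 in male dorsal, 1580, 968, 1407 and 4060 in male ventral libraries and 902 in the unsettled one. For this gene the dorsal libraries of the sexes overlapped, and female ventral library 3 was the lowest of all.

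The embryonic alpha-like globin Hba-x was at 8.89, 24.0 and 10.01 in female dorsal, 4.83, 20.6 and 84.7 in female ventral, 4.37, 12.9 and 6.23 in male dorsal, 2.79, 3.99, 2.69 and 25.9 in male ventral libraries and 8.59 in the unsettled one. Its beta-like counterpart Hbb-y was at 6.44, 19.3 and 9.61 in female dorsal, 5.03, 10.6 and 54.3 in female ventral, 3.57, 5.27 and 12.1 in male dorsal, 6.27, 2.06, 3.29 and 16.4 in male ventral libraries and 11.8 in the unsettled one. Both were highest in female ventral library 3, not in the library with the most adult globin, and the regions overlapped in each sex, as did the sexes in each region.

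Alas2 was at 53.4, 103 and 104 normalized CPM in female dorsal, 36.3, 67.3 and 27.7 in female ventral, 40.5, 36.0 and 28.6 in male dorsal, 51.7, 30.3, 57.9 and 243 in male ventral libraries and 34.5 in the unsettled one. The female dorsal values were all above the male dorsal ones and overlapped with the female ventral ones, since dorsal library 1 lay below ventral library 2. Slc4a1 was at 3.72, 5.58 and 6.16 in female dorsal, 2.95, 5.96 and 2.43 in female ventral, 0.967, 0.390 and 2.82 in male dorsal, 1.304, 0.581, 3.41 and 13.04 in male ventral libraries and 2.72 in the unsettled one. It was the only member near the floor of detection, and as for Alas2 the dorsal libraries of the sexes did not overlap.

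Between regions in female hearts, Alas2 was the only member that passed the test, in a limma fit on log2(value + 1) with Benjamini-Hochberg adjustment over all 14411 genes tested. It was lower ventrally by 1.01 on the log2 scale (log2 change -1.01, SE 0.34, adjusted p = 0.0494), at 43.8 ± 20.9 against 86.8 ± 28.9 normalized CPM (SD, n = 3 each). Of all genes tested, 27.8% passed in either direction and 13.3% in the direction of Alas2, so 1 of 8 members is no more than the background. The other 7 members did not pass. Hbb-bt had a change of -0.62 (SE 0.26, adjusted p = 0.105). It passed in 1 of 14 alternative fits, without female ventral library 1 (-0.86, adjusted p = 0.0357), where Alas2 did not. The other adult globins were at -0.14 to -0.05, against a median of 0.01 over all genes. The call on Alas2 was lost in 9 of 14 alternative fits, whose adjusted p ran from 0.0111 to 0.159 with changes of -1.36 to -0.74, among them the edgeR quasi-likelihood test on the recovered reads (adjusted p = 0.0642) and the fits without female dorsal library 2 (0.147) or 3 (0.134) or female ventral library 1 (0.109) or 3 (0.159).

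The genes of the haem pathway downstream of Alas2 were read beside it. Of all 14411 genes tested in female hearts, 27.8% passed in either direction and 13.3% fell ventrally. These shares are the background of the counts in this and the next paragraph. Of the 7 haem genes, none rose and 2 fell ventrally in female hearts. These were Fech, ferrochelatase, which puts the iron into haem (log2 change -1.03, SE 0.16, adjusted p = 0.00247), and Uros, uroporphyrinogen III synthase (-0.89, SE 0.27, adjusted p = 0.0377). Fech stood at 148, 201 and 175 normalized CPM in female dorsal libraries against 81.9, 99.7 and 74.5 in female ventral ones, without overlap, as was so in this direction for 21.6% of all genes tested. Of 12 red cell enzymes and genes of reticulocyte maturation, Blvrb and Ube2o rose and 2 fell: Mkrn1, a RING finger ubiquitin ligase (-2.06, SE 0.25, adjusted p = 8.44e-04), and Car2, a carbonic anhydrase (-0.66, SE 0.18, adjusted p = 0.0266). Tmod1, which caps actin filaments, and Gypc, glycophorin C, fell among 11 genes of the red cell membrane and skeleton, and none rose. Of 5 erythroid transcription factors, Ldb1 rose. Many of these genes are also expressed outside red cells, in heart muscle or endothelium among others, and these libraries do not separate the sources.

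Markers of other blood and tissue cells moved between the same female libraries. Of 8 macrophage genes 6 rose ventrally, of 6 general leukocyte genes 4 rose, of 7 platelet genes Pf4 rose, of 10 epicardial genes 9 rose and of 8 fibroblast genes 6 rose. None of these genes fell. Of 8 genes of smooth muscle and pericytes 2 rose and 3 fell, of 10 ventricular cardiomyocyte genes 1 rose and of 5 atrial genes 1 fell. Female dorsal library 1 stood apart in the atrial genes, which summed to 12512 there and to 532 to 2010 in the other 13 libraries. Without it Alas2 was at -1.32 with an adjusted p of 0.0187 by limma. The part of these markers in the change of Alas2 was not tested.

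In male hearts no member passed the test between regions by limma, none had an unadjusted p under 0.05, and edgeR called 0. Nor did any of 14917 genes pass (0%) by either tool, although 2083 had an unadjusted p under 0.05. That share depends on leaving out the replicate block: with it, 76 of 14917 genes passed by limma, 62 higher and 14 lower ventrally, and no member. The block also takes ventral male library 7 out of the estimate, since no other library of that fit has its number. In the fit without the block the adult globins had log2 changes of 0.89 to 1.08 towards the ventral side with adjusted p of 0.359 to 0.447, Alas2 0.97 (SE 0.55) and Slc4a1 0.83 (SE 0.69). The 95% interval of Hba-a1 ran from -0.30 to 2.46, so the comparison does not bound the change closely. With both sexes together and sex as a covariate, 0 of 8 members passed, none with an unadjusted p under 0.05 and none by edgeR, where 18.9% of genes did by limma. Their changes were all above 0, with a median of 0.22 against 0.03 over all genes.

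The change of region in males minus that in females was tested in 1 fit of the 13 libraries with a settled region. No member passed by limma or edgeR, with 2 at an unadjusted p under 0.05 and 2.73% of all genes past the threshold. These 2 were Alas2, with a difference of 1.98 (SE 0.75, adjusted p = 0.213), and Hbb-bt, with 1.51 (SE 0.54, adjusted p = 0.185). Alas2 passed in 1 of 23 alternative fits, with replicate numbers taken as blocks, at 1.37 with an adjusted p of 0.0459. In that fit ventral male library 7, the only library of its number, adds nothing to the estimate. Mkrn1 passed in the fit without the block (2.50, SE 0.46, adjusted p = 0.00797), at 76.0, 101 and 117 normalized CPM in female dorsal libraries and at 10.5 to 28.4 in all others.

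**Figure D2:**
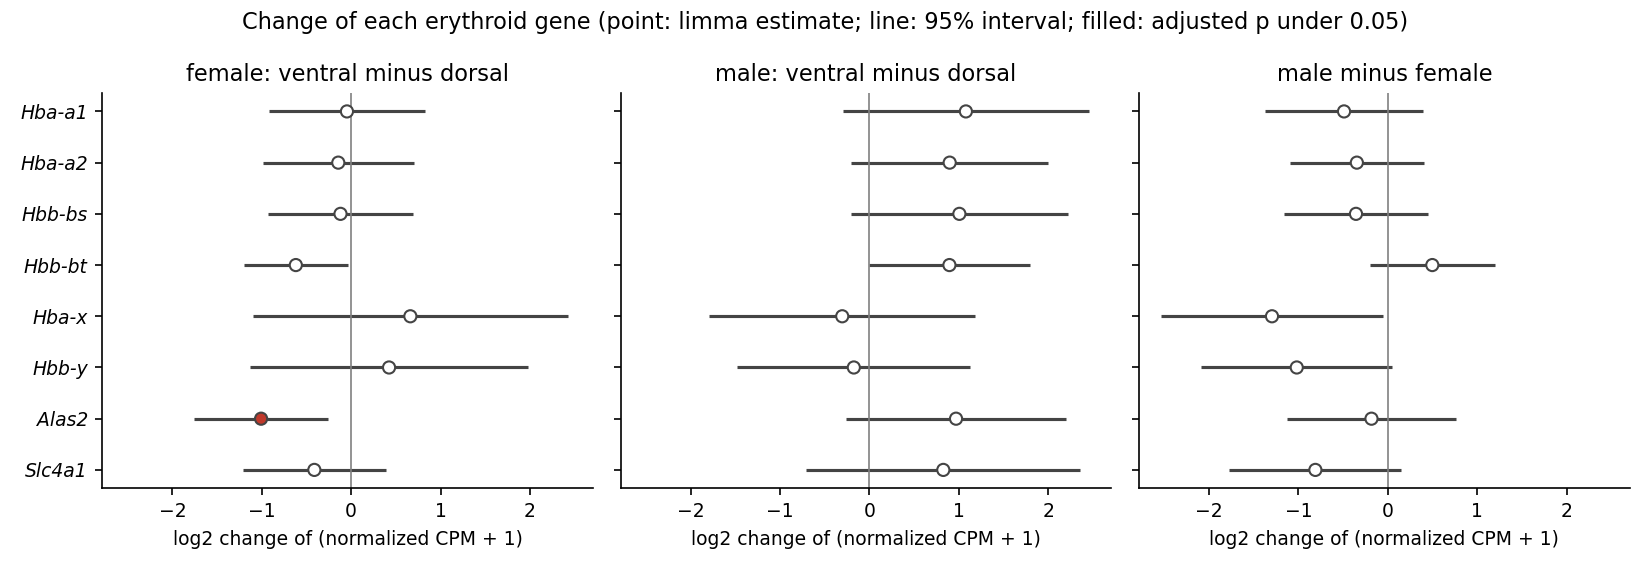
Change of each member in 3 comparisons on the scale of log2(normalized CPM + 1), as the limma estimate with its 95% interval; the filled point, Alas2 in female hearts, is the only one with an adjusted p under 0.05. In female hearts Hba-a1, Hba-a2 and Hbb-bs lie at -0.14 to -0.05 and Hbb-bt at -0.62, and in male hearts all 4 lie between 0.89 and 1.08, with intervals that hold 0 in both except for Hbb-bt in female hearts.

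Between the sexes over both regions, 0 of 8 members passed by limma, 0 by edgeR and 1 had an unadjusted p under 0.05, where 10.9% of genes passed. All members except Hbb-bt had changes below 0 in males, with a median of -0.42 against 0.03 over all genes. The unadjusted p under 0.05 was that of Hba-x (log2 change -1.296, SE 0.58, adjusted p = 0.174), while Hbb-bt stood at 0.50. The result turns on ventral male library 7. Without it, Hba-a1 (-0.86, adjusted p = 0.0316) and Slc4a1 (-1.16, adjusted p = 0.0394) passed by limma, as did 1400 of all 15637 genes in that fit. Hba-a1 passed in none of its other 22 alternative fits and Slc4a1 in none of its other 21. The sexes differ also in library number, 1 to 3 against 4 to 7, so sex and any series of preparation that the numbers mark cannot be told apart.

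In ventral libraries alone, 0 of 8 members passed by limma and by edgeR, 2 had an unadjusted p under 0.05, and 8.45% of genes passed. Hbb-bt was higher in males by 1.21 on the log2 scale (SE 0.37, adjusted p = 0.0596), which did not pass. Of 20 alternative fits it passed in 3 and did not pass in 17. The 3 were those without male ventral library 5 (1.48, adjusted p = 0.0279), over genes with a mean of at least 10 (adjusted p = 0.0470) and with the members taken out of the library size (1.28, adjusted p = 0.0470). Hba-x was at -1.75 (SE 0.80, adjusted p = 0.195), and passed in 1 of 20 alternative fits, without female ventral library 1 (-2.71, adjusted p = 0.0490). In dorsal libraries alone, 0 of 8 passed by limma and by edgeR, 2 had an unadjusted p under 0.05, and 7.16% of genes passed. All 8 changes were below 0, with a median of -0.93 against 0.03 over all genes. The dorsal libraries of the sexes did not overlap for Hba-a1, Hbb-bs, Alas2 and Slc4a1, as was so in this direction for 12.7% of all genes. Slc4a1 had the largest difference, -1.47 (SE 0.64, adjusted p = 0.222). Alas2 was at -1.24 (SE 0.55, adjusted p = 0.233) and passed in 1 of 20 alternative fits. In that fit ventral male library 7, which only shares the estimate of the spread, was left out (adjusted p = 0.0360). Markers of other cells differed between the same dorsal libraries: 5 of 10 epicardial genes were higher in males, with a list median of 1.60, as were 3 of 8 fibroblast genes, 2 of 8 macrophage genes and 1 of 6 general leukocyte genes, and none was lower. Their part in the members' differences was not tested.

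Among the other erythroid genes, Cpox of haem synthesis fell in males over both regions (log2 change -1.37, SE 0.23, adjusted p = 0.00142), alone among 7 genes of that list. Lmo2, a partner of the erythroid transcription factor complex that is also expressed in endothelium, fell by 1.55 on the log2 scale (adjusted p = 0.00419), alone among 6. Mkrn1 fell among 12 (-1.44, adjusted p = 0.0267), and Aqp1, a water channel of red cells and endothelium, rose among 13 (0.96, adjusted p = 0.0249). In dorsal libraries Car2 fell too (-1.18, SE 0.34, adjusted p = 0.0471), as did Xpo7, Zfpm1, Lmo2, Mkrn1 and Cpox. None of 7 genes of iron supply and erythroid receptors passed in any of the comparisons of the sexes. The background of these counts is the share of all genes that passed. It was 10.9% over both regions, 8.45% in ventral and 7.16% in dorsal libraries.

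Ratios between members remove the total amount of blood RNA, and 6 were compared between the sexes and between the regions by exact permutation tests, two-sided, on the 13 libraries of settled region with adjustment over the 12 tests. None passed after adjustment. The nearest was Hbb-bt over Hbb-bs. Hbb-bt made up 18.3, 11.8 and 12.1% of adult beta-globin in female dorsal libraries, 14.9, 9.27 and 7.56% in female ventral, 21.7, 19.01 and 19.7% in male dorsal and 22.1, 19.8, 20.4 and 14.1% in male ventral ones, and 17.3% in the unsettled one. The settled male libraries were all above the female ones except ventral library 7. The ratio was 0.143 in females (n = 6) and 0.244 in males (n = 7), a difference of 0.83 on the log2 scale (exact permutation p = 0.00466, adjusted 0.0559). With the libraries of a number averaged, 3 numbers against 4, the exact permutation p was 0.0857 (adjusted 0.229). Only 35 arrangements of the numbers exist, too few for a single ratio to pass alone after adjustment, here and below. With the libraries taken singly, the adjusted p was 0.0130 without ventral male library 7, and it was also below 0.05 without female dorsal library 1 (0.0227) or female ventral library 1 (0.0303). Over the 13 permutation tests with 1 library left out, it ran up to 0.104.

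The ratio of adult beta to adult alpha-globin was higher in males by 0.19 on the log2 scale (0.593 against 0.520, exact permutation p = 0.0105, adjusted 0.0629), with values of 0.491 to 0.583 in females and 0.542 to 0.649 in males. It passed without ventral male library 7 (adjusted 0.0346) or female dorsal library 1 (0.0227). Over the 13 permutation tests with 1 library left out, the adjusted p ran up to 0.136. With the libraries of a number averaged the exact permutation p was 0.114 (adjusted 0.229). Hba-a2 over Hba-a1 was 0.695 to 0.850 in females and 0.886 to 0.952 in males other than ventral library 7, where it was 0.586, and the unsettled library, at 0.727. Its difference between the sexes was 0.13 (exact permutation p = 0.258, adjusted 0.386), or 0.23 without ventral male library 7 (adjusted 0.0130). With the libraries of a number averaged, library 7 included, the exact permutation p was 0.743 (adjusted 0.743). This ratio depends on how reads were split between nearly identical genes.

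Per 10000 units of adult globin, Slc4a1 stood at 1.27 to 2.44 in females and 0.335 to 1.86 in males (log2 difference -1.01, exact permutation p = 0.0367, adjusted 0.147). With the libraries of a number averaged its exact permutation p was 0.200. Alas2 per 1000 units of adult globin was 3.51, 3.49 and 3.46 in female dorsal libraries, the tightest of any group, and 1.79, 2.48 and 1.45 in female ventral ones, without overlap. By level, 21.6% of all genes tested were so separated in this direction in female hearts. In male libraries the ratio was 1.88 to 3.81 dorsally and 2.44 to 2.98 ventrally. Between regions it differed by -0.46 on the log2 scale (exact permutation p = 0.0814, adjusted 0.244), falling in 5 of 6 numbered pairs (exact sign-flip permutation p = 0.156, adjusted 0.5). It passed without male dorsal library 6 (adjusted 0.0400). Over the 13 permutation tests with 1 library left out, the adjusted p ran up to 0.464. The sign flips of 6 pairs are too few for a single ratio to pass alone after adjustment.

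**Figure D3:**
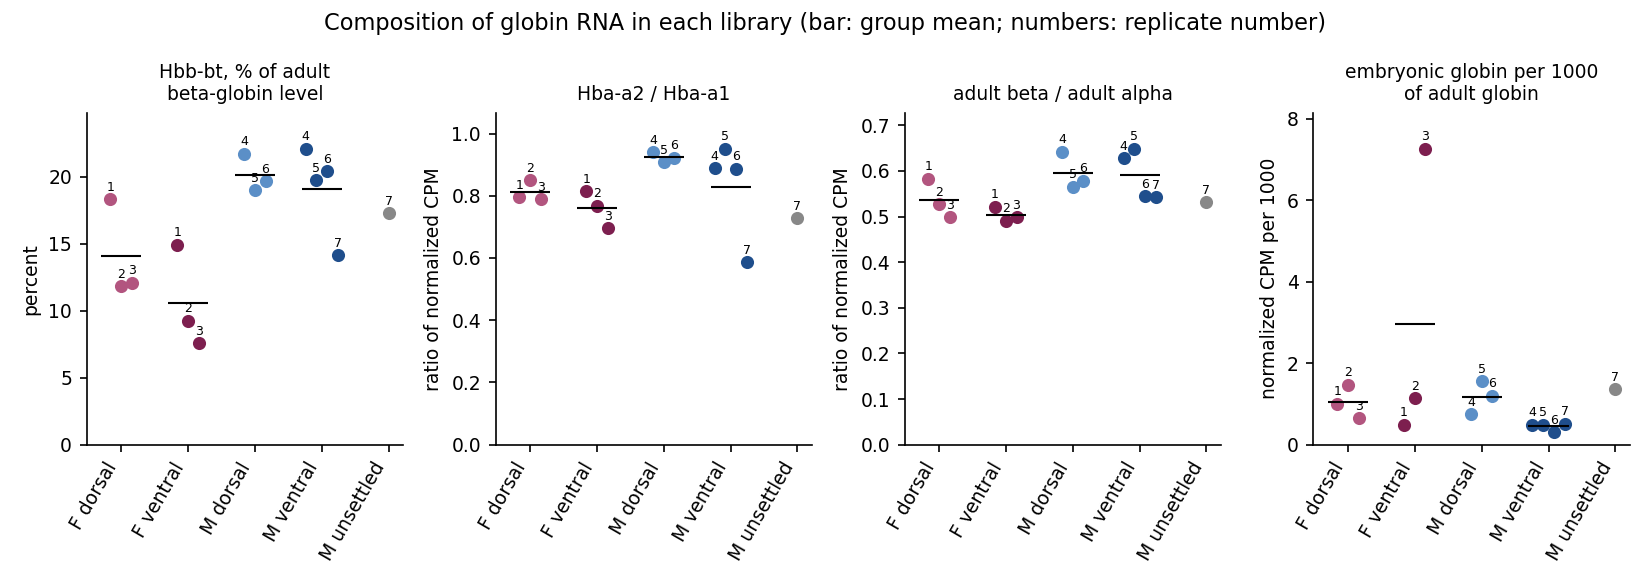
Share of Hbb-bt in adult beta-globin (percent), the ratios of Hba-a2 to Hba-a1 and of adult beta to adult alpha-globin, and embryonic globin (Hba-x plus Hbb-y) per 1000 units of adult globin, in each library; bars are group means and small figures replicate numbers. Ventral male library 7 has the lowest ratio of Hba-a2 to Hba-a1, at 0.586, and female ventral library 3 the most embryonic globin, at 7.27.

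Embryonic globin came to 7.27 per 1000 units of adult globin in female ventral library 3 and to 0.306 to 1.56 in the other 13. It was 0.306 to 0.517 in the 4 male ventral libraries, below the 0.746 to 1.56 of the 3 male dorsal ones. This separation was seen in the values and was not tested within males. No share of all genes so separated in male hearts stands beside it. In male ventral libraries 4 to 6 it rests on 54 to 99 reads of Hba-x and 51 to 122 of Hbb-y. The ventral library was the lower in 5 of the 6 numbered pairs, the exception being female number 3. Over the 13 libraries the difference between regions was -0.33 on the log2 scale (exact permutation p = 0.674, adjusted 0.736) and that between the sexes -0.93 (p = 0.154 by exact permutation, adjusted 0.348). Without female ventral library 1 the regional difference turned to 0.10.

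Female ventral library 3 stood apart in another blood lineage as well. The 7 genes of neutrophils and myeloid precursors summed to 358 normalized CPM there and to 0.599 to 49.9 in the other libraries, and all 7 were highest in it. S100a8, a calcium-binding protein of neutrophils, was at 127 against at most 21.7 elsewhere, the granule protein Ngp at 99.0 against at most 9.26, S100a9 at 59.6, Camp at 33.5 and Mpo, myeloperoxidase, at 18.9. The members' summed level in that library, 19308, was 1.04 times the median of the others. Its platelet genes summed to 171 and its macrophage genes to 498, within the range of the other libraries. Of 8 lymphoid genes 2, Cd79b and Nkg7, were analysed here, and they summed to 0.272 to 4.04 over the 14 libraries, so the list says little of these cells.

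Ventral male library 7, which had the most adult globin, showed another pattern. Of 12 red cell enzymes and maturation genes 7 were highest there, where 10.3% of all genes were. Of 13 genes of the membrane and skeleton 3 were highest and 2 lowest. Highest there were also 1 of 6 erythroid transcription factors, 1 of 7 later genes of haem synthesis and 2 of 7 genes of iron supply and receptors. The median ratio of a list's genes to the median of the other 13 libraries was 1.9, 1.04, 0.80, 0.85 and 0.74, in that order. Bpgm, the bisphosphoglycerate mutase of red cells, was at 100.02 against 19.7 to 66.3 in the other 13 and Trim10 at 8.70 against at most 3.57. Its 7 myeloid genes summed to 16.7, within the range of the others, but the sums of macrophage, general leukocyte and platelet genes were at their highest. The macrophage genes summed to 673 against at most 596 elsewhere, with 4 of 8 genes highest there. The general leukocyte genes summed to 184 against at most 163, with 3 of 6 highest, and the platelet genes to 182 against at most 171. Of 8 platelet genes 2 were highest there and 1 was lowest. The platelet sum is mostly Pf4, with a mean of 88.9 over the 14 libraries against at most 5.24 for the others. Epicardial genes were highest there in sum, at 5818 against 355 to 5477, whereas blood endothelial genes summed to 218 against 421 to 833 and ventricular cardiomyocyte genes to 11464 against 15538 to 31157. Of 8 endothelial genes 7 were lowest in this library. The part of this make-up in the members' level was not tested.

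**Figure D4:**
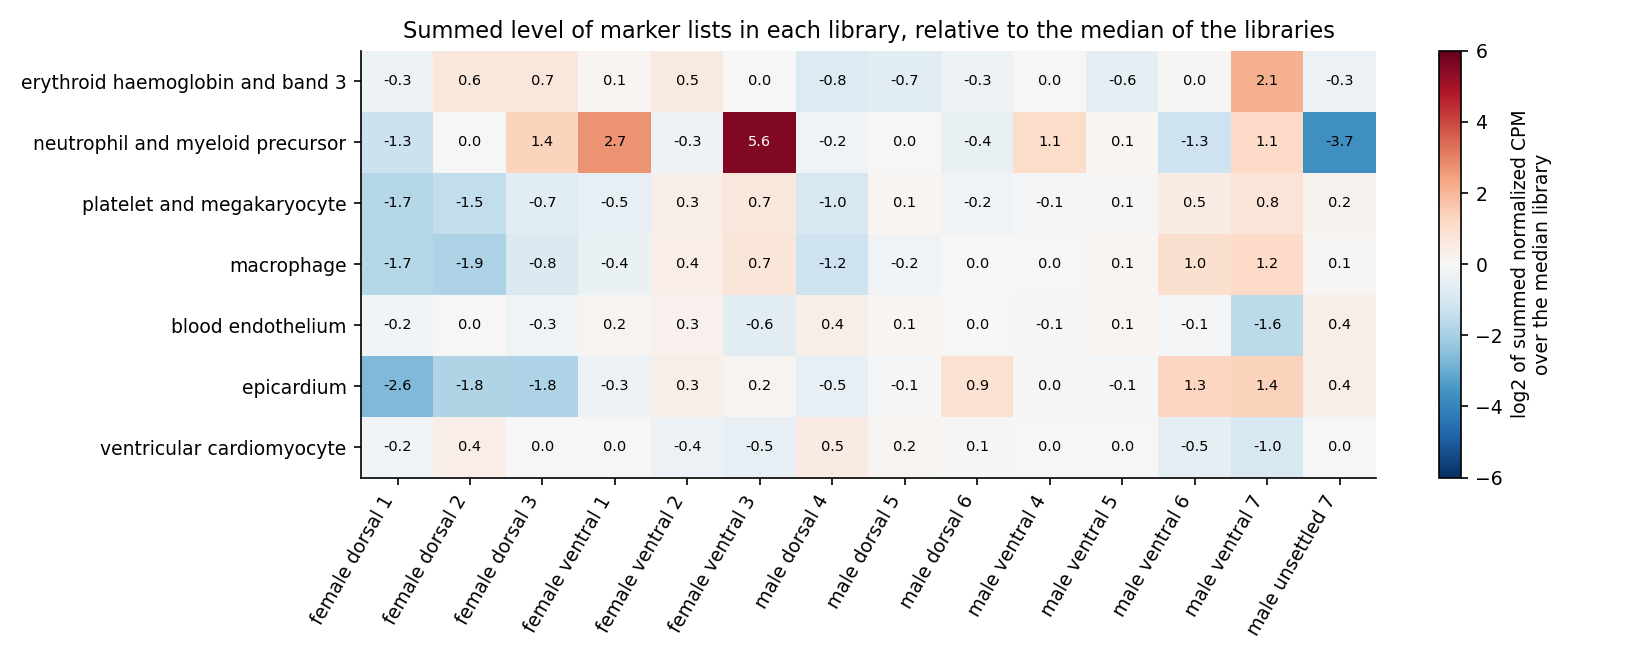
Summed level of the erythroid set and of 6 marker lists in each library, as log2 of the ratio to the median of the 14 libraries (colour and printed value). Ventral male library 7 has the highest erythroid sum and the lowest endothelial and cardiomyocyte sums, and female ventral library 3 has the highest myeloid sum.

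Across the 14 libraries the members differed in how closely they followed their sum. Pearson's r of log2(value + 1) with the log2 of the summed members was 0.998 for Hbb-bs, 0.995 for both Hba-a1 and Hba-a2, 0.889 for Slc4a1, 0.886 for Alas2, 0.707 for Hbb-bt, 0.461 for Hbb-y and 0.446 for Hba-x. The first 3 make up most of the sum, and for them r is a description of that. Without ventral male library 7, r was 0.226 for Hbb-bt, 0.749 for Alas2 and 0.859 for Slc4a1. The median over 15870 genes was 0.01, and 10 genes, 5 of them members, had r of at least 0.8. Without ventral male library 7 there were 42 such genes, 4 of them members. The points share library depth and composition, and no test was made.

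Among the 10 genes outside the set that followed it most closely were Olfr57 (r = 0.888), Bpgm (0.831), Car2 (0.828), Rffl (0.787), Rida (0.784), Trim10 (0.784) and Ly9 (0.780). Without ventral male library 7, r was 0.481 to 0.785 for these. By list, the median r was 0.58 for the 12 red cell enzymes and maturation genes, 0.04 for the 7 later genes of haem synthesis, -0.07 for 13 genes of the membrane and skeleton, 0.18 for 6 erythroid transcription factors and -0.20 for 7 genes of iron supply and receptors. Gata1, the main erythroid GATA factor, reached at most 1.96 normalized CPM. For other cells it was 0.19 for myeloid, 0.08 for platelet, 0.30 for macrophage, 0.19 for epicardial, -0.36 for ventricular cardiomyocyte and -0.74 for blood endothelial genes. Without ventral male library 7 it was -0.07 for macrophage, -0.17 for epicardial, 0.02 for ventricular cardiomyocyte and -0.20 for blood endothelial genes, and 0.48 for the red cell enzymes.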

How the data were processed

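The authors' processing, per the labels and the study's methods, trimmed adapters from single reads of 60 bases with Cutadapt, quantified genes with RSEM (version 1.3.1 in the submitters' processing notes; the methods give another version) on GRCm38 and used limma for normalization, keeping genes that reached 1 CPM in 3 samples or more. The deposited values are a normalized signal per gene. Each equals a whole number of reads plus 0.5, divided by an effective library size in the CPM scale, which gave whole reads for 100.0% of values within 0.02 reads, so the authors' normalized CPM and the reads behind them were both used. Whether reads were counted by strand is not given in the sources used here.

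Tests were made with limma 3.58.1 (lmFit, eBayes with trend) on log2(value + 1), over genes reaching a value of 1 in 3 or more of the libraries fitted, with Benjamini-Hochberg adjustment and a threshold of 0.05, and with edgeR 4.0.16 (quasi-likelihood) on the recovered reads in R 4.3.3. The pseudocount compresses changes of low genes. Scripts were tested on simulated reads. Sequences came from GENCODE M21 and RefSeq (GRCm38.p6). Ratios were tested by exact permutation in Python 3.11.15.

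The members, the marker lists and the tests were chosen with earlier results of these data known. Genes named were all members, up to 4 of each list by mean level, list genes that passed where they are described, and the 10 genes most like the summed members, some of which are not reported here; genes named for standing apart in 1 library were chosen after their values were seen. The deviations of same-numbered dorsal and ventral libraries from their group means correlated at 0.187, 0.169 and 0.270 (females, numbers 1 to 3) and 0.427, 0.175 and 0.351 (males, numbers 4 to 6), so the number was taken to pair libraries; it was no term of the main fits. Nothing says what a number marks. The main fits, and the permutations with libraries taken singly, treat same-numbered libraries as independent. Their p-values measure the spread between libraries, and for the sexes not the spread between numbers. Alternatives were another pseudocount, filter or scaling, removal of the members from the library size, edgeR, eBayes without trend, the replicate block, each library left out and other treatments of the unsettled library; those for ratios were chosen after seeing the data.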

Additional observations from a re-analysis of the deposited data

Results flagged for a closer look

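Ventral male library 7 lay apart from the other 3 male ventral libraries. Its gap to the nearest of them, as a share of the range of all 4, passed Dixon's critical value at 95% for Hba-a1 (0.904), Hba-a2 (0.858), Hbb-bs (0.921), Hba-x (0.944), Alas2 (0.870), the summed members (0.897) and the summed embryonic globins (0.915). For Hbb-bt it was 0.802, for Slc4a1 0.773 and for Hbb-y 0.706. Male ventral library 6 lay apart at the low end for embryonic globin per 1000 units of adult globin, at 0.306 (gap 0.856). These were 8 of 16 measures tested, all on the same 4 libraries and so not independent, and chance flags about 1 group in 20. Groups of 3 cannot be tested in this way, which leaves out female ventral library 3.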

How the results depend on the processing

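Changes are on the log2 scale. In female hearts the count of members passing between regions, 1 (Alas2), was 0 with a pseudocount of 0.1, no filter, the median of ratios, eBayes without trend and edgeR, and 0 to 1 with a library left out, the 1 without female ventral library 1 being Hbb-bt (-0.86, adjusted p = 0.0357). For the sexes the count ran from 0 to 2 with a library left out, in ventral libraries it was 1 with a mean of at least 10 and with the members removed from the library size and 0 to 1 with a library left out, and in dorsal libraries 0 to 1. With the replicate block 1 member, Alas2, passed in the difference of the regional changes, and the block changed no other call on a member. Some changes that did not pass turned sign: with edgeR the male regional change was 0.0060 for Hbb-y and 0.177 for Hba-x, with the unsettled library as ventral 0.025 for Hbb-y, and Alas2 between the sexes was 0.0094 with libraries of a number averaged. With a library left out the female regional change ran from -0.485 to 1.114 for Hbb-y, -0.315 to 1.625 for Hba-x, -0.438 to 0.047 for Hbb-bs, -0.497 to 0.033 for Hba-a2 and -0.385 to 0.148 for Hba-a1, and the male one from -0.657 to 0.254 for Hbb-y and -0.982 to 0.079 for Hba-x. Ratios between the sexes ran from 0.689 to 0.980 for Hbb-bt over Hbb-bs, 0.099 to 0.225 for Hba-a2 over Hba-a1, 0.166 to 0.222 for beta over alpha and -0.029 to 0.230 for Alas2 over adult globin, and between regions from -0.873 to 0.101 for embryonic, -0.605 to -0.351 for Alas2 and -0.408 to 0.209 for Slc4a1, each over adult globin. The cause was not tested. Scaling moved the share of calls that were higher: over both sexes 52% of regional calls were higher ventrally and 63.4% with the median of ratios, and 39.4% of calls between the sexes in ventral libraries were higher in males and 57.1% with the members removed from the library size. That removal moved the median difference of the regional changes over all genes from -0.02 to 0.09.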
